A study of Rattus norvegicus with 9 samples.

Results

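The histone genes of RBL-2H3, a line from rat basophilic leukemia that stands in for mast cells, were followed in RNA-seq values of 9 samples. Members were all genes whose symbol begins with Hist1h, Hist2h, Hist3h or Hist4h (clustered genes) or with H2af, H3f3 or H1f (other histone genes). The gene rows listed 49 such symbols, and 44 of them had values, 34 clustered and 10 other, among 18006 genes with values. Clustered Hist1h2ba and Hist3h3, and H1fnt, H1foo and H2afb3 of the other class, had none. Genes that carry only newer names for histones fall outside this rule.

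There were 3 samples in each of 3 groups. The group labelled IgE/DNP, called DNP here, was sensitized with anti-DNP IgE at 50 ng/mL for 12 h and then given the antigen DNP-HSA at 100 ng/mL for 4 h. The PF group had the same sensitization and antigen, after a pretreatment of 1 h with an agent that the labels call PF and do not identify. Its antigen time is 4 h in one label field and 4, 5 and 6 h for replicates 1, 2 and 3 in another. The Ctrl group is called untreated in one field, while another gives it the sensitization, so whether it received IgE is not settled. The labels do not say whether the 3 samples of a group came from separate cultures. The paper speaks of independent experiments for a set of panels that holds an RNA-seq heatmap, without saying how they map to these samples. The p-values measure the spread between these samples, which may be technical.

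Histones package DNA into nucleosomes. H2A, H2B, H3 and H4 form the core, and H1 binds the linker DNA between nucleosomes. The clustered genes are mostly copied into RNA when DNA is replicated, and their mRNAs typically end in a stem-loop in place of a poly(A) tail. Most of the other histone genes encode variants, are expressed outside S phase as well, and have polyadenylated mRNAs. How RNA was captured for these libraries is not given in the sources used here, and a library made from poly(A) RNA would hold few of the transcripts that end in a stem-loop. Many clustered genes are near-identical copies, and the authors' counting could split reads between them, so the value of any one copy is uncertain.

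Levels are in FPKM, fragments scaled by transcript length and by mapped fragments. Comparing them between genes is limited by the unknown RNA capture and by reads shared between copies. The median level over all 9 samples was 3.70 FPKM for the clustered genes, 35.7 FPKM for the other histone genes and 2.67 FPKM for all genes with values. Of the 34 clustered genes, 6 had a mean under 1 FPKM, 18 between 1 and 10, 8 between 10 and 100, and 2 above 100. The 6 most abundant were Hist1h1c, a linker histone, at 363 FPKM, Hist1h2bh at 147 FPKM, Hist1h4b at 58.9 FPKM, Hist2h2aa3 at 27.9 FPKM, Hist1h2bk at 24.2 FPKM and Hist3h2ba at 22.3 FPKM. In the Ctrl samples Hist1h1c alone made up 55.9% of the summed clustered level. Among the other histone genes, H3f3b (histone H3.3) at 497 FPKM and H2afz (H2A.Z) at 403 FPKM ranked 171 and 211 among the 18006 genes.

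The labels give the line but also peripheral blood as its tissue. All 10 mast cell and basophil markers had values, led by Fcer1g, a chain of the IgE receptor, and summed to between 2596 and 2755 FPKM per sample. T cell markers summed to between 6.96 and 10.3 FPKM, led by Cd3e. Markers of B cells, macrophages, erythroid, fibroblast and epithelial cells each summed to at most 1.15 FPKM in every sample, and none of the neutrophil markers had a value. Summed values of all genes were 585580 ± 5499 FPKM (SD, n = 3) in Ctrl, 577964 ± 4785 in DNP and 619089 ± 10096 in PF. FPKM holds no read counts, so the depth in reads is unknown.

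The first comparison asks how antigen stimulation changed the histone genes. Few clustered genes moved. The 34 clustered genes summed to 721, 724 and 716 FPKM in the Ctrl samples and to 668, 640 and 693 FPKM in the DNP samples, so the DNP samples lay lower and the groups did not overlap. That rested on Hist1h1c. Without it the sums were 331.88, 311.26 and 308.87 FPKM in Ctrl and 297.75, 286.42 and 316.98 FPKM in DNP, and the groups overlapped. In bulk RNA, fewer cells that make a transcript and less of it per cell cannot be told apart. The mean clustered sum was 720 ± 4.35 FPKM (SD, n = 3) in Ctrl and 667 ± 26.3 FPKM in DNP, a ratio of 0.926. The other histone genes summed to 1158 ± 7.48 FPKM in Ctrl and to 1180 ± 11.7 FPKM in DNP.

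Genes were tested with limma on log2(FPKM + 1), where 3 or more of the 6 samples compared reached 1 FPKM, with a Benjamini-Hochberg adjusted p of at most 0.05 over all genes tested. Fold changes on this scale understate the change of low genes. Of the 34 clustered genes, 27 were tested in DNP vs Ctrl, and 1 was higher and 2 were lower in DNP, where 14.7% of the 10392 genes tested were higher and 14.4% were lower. The 7 not tested had means between 0 and 0.73 FPKM in both groups. Over all 34, the median log2 difference was -0.08, against 0.0 for all genes with values.

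Hist3h2a, a core histone H2A gene of the third cluster, was the clustered gene that rose. Its level was 5.10, 4.93 and 4.85 FPKM in Ctrl and 7.09, 6.68 and 8.38 FPKM in DNP. All 3 DNP samples lay above all 3 Ctrl samples, with a log2 fold change of 0.49 (SE 0.083, adjusted p = 0.00387). Hist1h1c fell by 0.14 on the log2 scale (SE 0.037, adjusted p = 0.025). All 3 of its DNP samples lay below all 3 Ctrl samples. Hist1h2ak, an H2A gene, fell by 0.36 (SE 0.103, adjusted p = 0.0322), from 2.21 to 1.51 FPKM. The call of Hist1h1c was lost without Ctrl replicate 2 or 3 and without DNP replicate 1 or 2, with an adjusted p between 0.0557 and 0.0893, and also with a replicate block (0.0531), with no filter (0.0565) and without limma's trend (0.0672). That of Hist1h2ak was lost with any 1 Ctrl replicate left out and without DNP replicate 2 or 3, with an adjusted p between 0.0582 and 0.0922, and also with no filter (0.0684) and with all 9 samples in the fit (0.0838). Of the 10 clustered H2B genes 8 were tested in this comparison and none was called by limma, and 3 of them were lower at an unadjusted p under 0.05. Some were called under an alternative, lower in DNP: Hist1h2bd with a replicate block (adjusted p = 0.0147) and without Ctrl replicate 3 (0.0248), Hist1h2bh with all 9 samples in the fit (0.0499) and without DNP replicate 3 (0.0321), and Hist1h2bo without Ctrl replicate 1 (0.0272). Hist1h2bf was called higher without Ctrl replicate 2 (0.0325). Outside the H2B genes, Hist1h2an was called lower with a replicate block (0.0471) and Hist1h1a lower without DNP replicate 2 (0.0425). Hist2h4 was called higher without Ctrl replicate 1 (0.0298) and without DNP replicate 1 (0.0429).

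Of the 10 other histone genes, 8 were tested in DNP vs Ctrl, and 3 were higher and 2 lower in DNP (14.7% and 14.4% of all genes tested). H1f0, the replacement linker histone H1.0 of slowly dividing cells, changed most. Ctrl samples measured 29.1, 29.0 and 37.1 FPKM, and DNP samples 51.5, 56.05 and 54.8 FPKM. The lowest DNP sample stood above the highest Ctrl sample, and the log2 fold change was 0.76 (SE 0.089, adjusted p = 0.000713). H2afy, which encodes macroH2A1, rose from 71.8 ± 3.28 to 92.9 ± 2.50 FPKM (SD, n = 3), a log2 fold change of 0.37 (SE 0.042, adjusted p = 0.000633). H2afx, whose protein H2A.X is phosphorylated at DNA breaks, rose by 0.17 (SE 0.041, adjusted p = 0.0168).

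The H2A variants did not move in one direction. H2afj fell by 0.25 (SE 0.043, adjusted p = 0.00384), from 123 to 103 FPKM, and H2afv, another H2A.Z gene, fell by 0.26 (SE 0.073, adjusted p = 0.030), from 31.6 to 26.3 FPKM. The call of H2afv was lost without Ctrl replicate 2 or 3 and without DNP replicate 1 or 2 (adjusted p from 0.0730 to 0.09195), and also with no filter (0.0785), with all 9 samples in the fit (0.0681) and without limma's trend (0.0544). That of H2afx was lost without DNP replicate 2 or 3 (adjusted p = 0.0558 and 0.06425). H3f3b and H3f3c were not called, with H3f3b at 490.3 ± 3.07 FPKM (SD, n = 3) in Ctrl against 485 ± 12.0 in DNP. Nor was H2afz, at 383 ± 9.97 and 389.8 ± 15.6 FPKM. The median log2 difference over the 10 genes was -0.0048, and its sign depended on the processing. It came to 0.0040 once samples were scaled to a common total, the mean of the deposited sums.

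**Figure D1:**
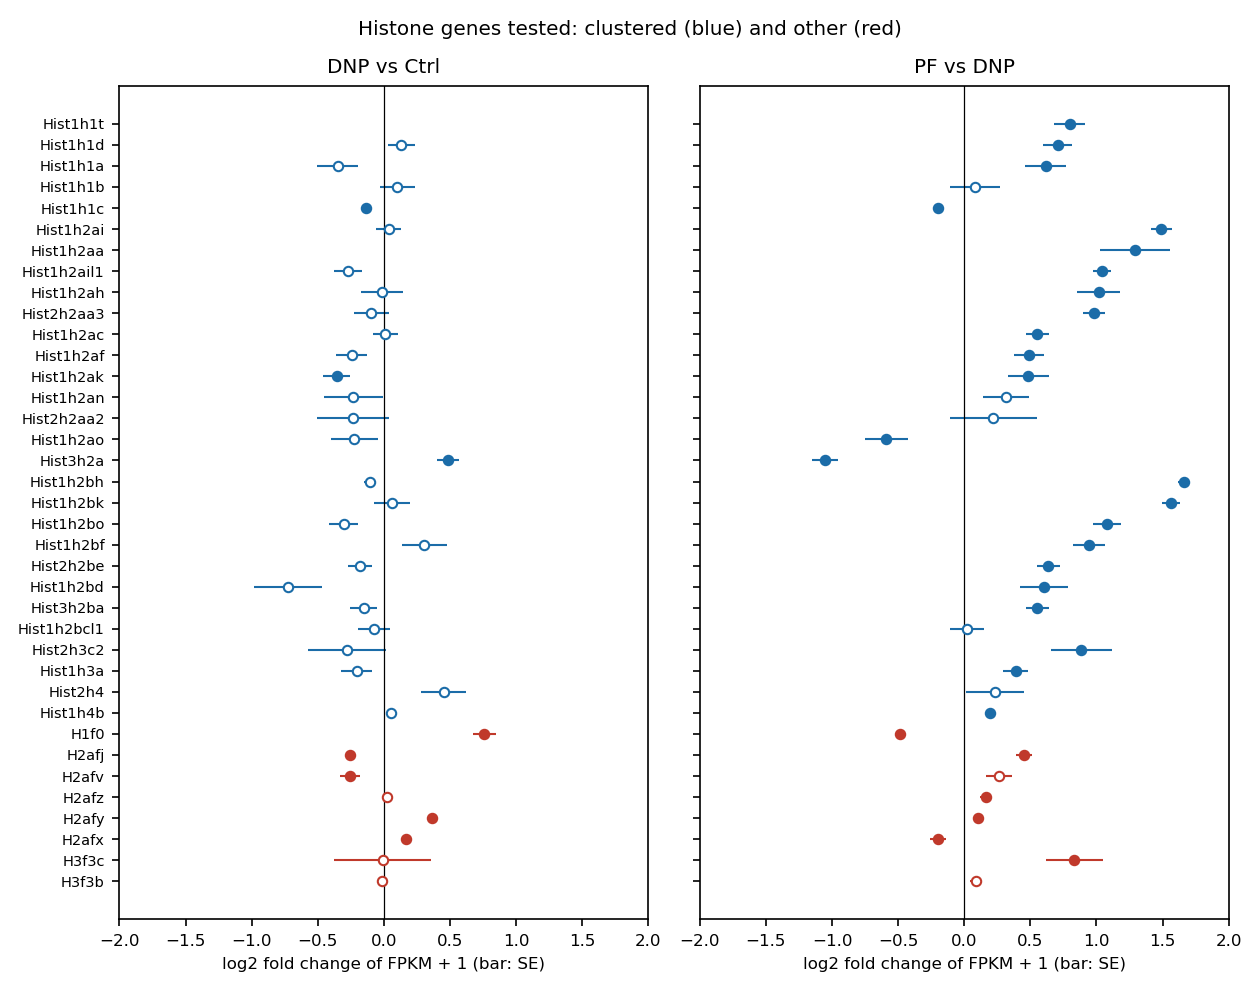
Log2 fold change of FPKM + 1 (x axis) with its SE for each histone gene tested in PF vs DNP (y axis), in DNP vs Ctrl on the left and PF vs DNP on the right. Clustered genes are blue and other histone genes red, and filled points were called by limma (adjusted p up to 0.05); in PF vs DNP 21 clustered genes lie to the right of 0 with filled points and 3 to the left.

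The second comparison asks what PF pretreatment changed in stimulated cells. Most clustered genes tested were higher with PF, while the abundant linker histone gene Hist1h1c was lower. By summed level the PF to DNP ratio was 2.74 for H2B, 1.80 for H3, 1.68 for H2A, 1.15 for H4 and 0.891 for H1 genes. The clustered genes summed to 926, 978 and 915 FPKM in the PF samples, above every DNP and every Ctrl sample. The mean was 940 ± 33.5 FPKM (SD, n = 3), 1.41 times that in DNP. Hist1h2bh alone was 183.5 FPKM higher in PF than in DNP. Without Hist1h2bh the sums were 583 ± 23.0 FPKM in DNP and 672 ± 28.2 FPKM in PF, a ratio of 1.15, and without Hist1h1c they were 300.4 ± 15.4 and 620 ± 17.2 FPKM, a ratio of 2.06. The other histone genes summed to 1294 ± 58.1 FPKM in PF, 1.10 times their sum in DNP, while all genes together summed to 1.07 times the DNP total.

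Of the 34 clustered genes, 29 were tested in PF vs DNP, and 21 were higher and 3 lower in PF. Of the 10329 genes tested, 18.1% were higher and 30.7% were lower. With samples scaled by median ratios 47.97% of all calls were higher in PF, with a common total (that mean of sums) 16.8%, and as deposited 37.1%. The same 24 clustered genes were called, 21 higher and 3 lower, under both of those scalings. Hist1h1t passed the filter through the PF samples alone, so it had to differ. The 5 genes not tested had means between 0 and 1.15 FPKM in DNP and PF. The median log2 difference over all 34 was 0.52, between 0.44 and 0.56 under the other scalings, against -0.0094 for all genes with values. For the 10 other histone genes it was 0.10 as deposited, and the scaling moved single genes of this class by a like amount. With the mean of the deposited sums the log2 change of H2afz went from 0.16 to 0.063 and that of H2afy from 0.11 to 0.0071. With median ratios that of H3f3b went from 0.088 to 0.136. Of the 23 Hist1 genes 17 were higher and 2 lower, of the 8 Hist2 genes 3 were higher and none lower, and of the 3 Hist3 genes 1 was higher and 1 lower.

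**Figure D2:**
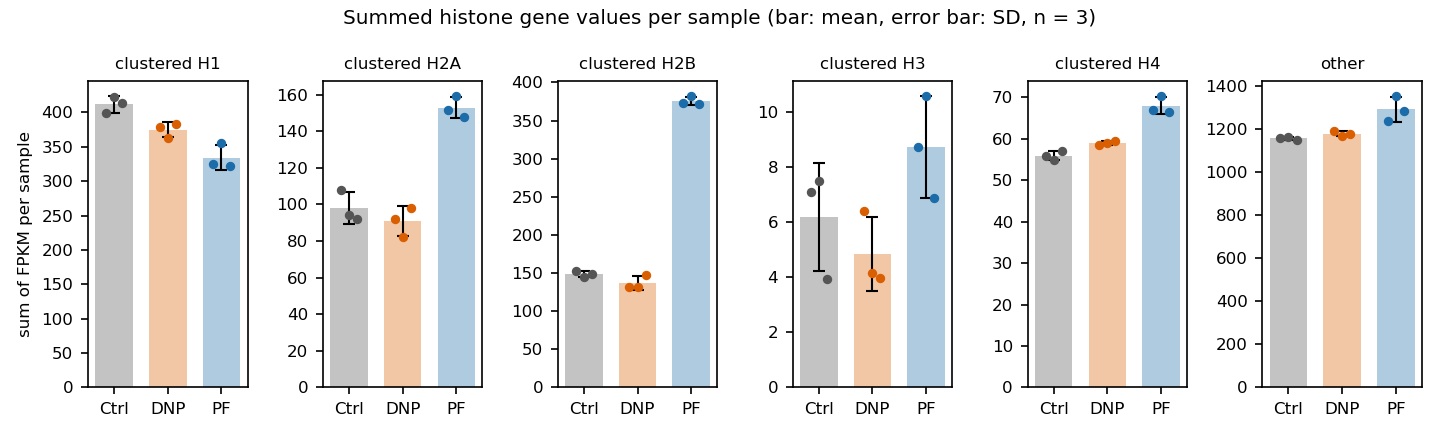
Summed FPKM per sample (y axis, linear from 0, with its own range in each panel) of the clustered genes by kind of histone and of the other histone genes, in Ctrl, DNP and PF (x axis). Bars are means, error bars SD, and points the 3 samples; the clustered H2B sum is 376 FPKM in PF against 137 in DNP, and the clustered H1 sum 334 against 375.

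H2B genes had the highest summed ratio of PF to DNP, much of it through Hist1h2bh. The 10 clustered H2B genes summed to 149 ± 3.49 FPKM in Ctrl, 137 ± 8.98 in DNP and 376 ± 5.45 in PF (SD, n = 3), and of 8 tested, 7 were higher in PF than in DNP and none lower by limma (18.1% and 30.7% of all genes tested), with none lower at an unadjusted p under 0.05 either. Without Hist1h2bh the H2B sum was 53.2 ± 5.10 FPKM in DNP and 108 ± 0.269 in PF, a ratio of 2.04. The median log2 difference over the H2B genes was 0.62, close to 0.64 over the H3 and 0.61 over the H1 genes, with 0.49 over the H2A and 0.20 over the H4 genes.

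Hist1h2bh (gene ID 306945), the most abundant clustered core histone gene, measured 91.85, 89.2 and 90.9 FPKM in Ctrl, 82.0, 81.7 and 88.6 in DNP, and 265, 274 and 264 in PF. All PF samples lay far above all others, while Ctrl and DNP lay close together. The log2 fold change in PF vs DNP was 1.66 (SE 0.0388, adjusted p = 6.023e-08), higher in 3 of 3 PF samples. Hist1h2bk (gene ID 680312), also an H2B gene, measured 16.8, 14.0 and 10.9 FPKM in Ctrl, 12.95, 14.3 and 15.9 in DNP, and 45.45, 42.7 and 44.6 in PF. Ctrl and DNP overlapped and PF stood apart from both, with a log2 fold change of 1.56 (SE 0.0675, adjusted p = 7.394e-07). Hist1h2bo rose by 1.08 (SE 0.103, adjusted p = 4.777e-05), from 4.67, 4.31 and 3.94 FPKM in DNP to 8.58, 10.8 and 11.4 FPKM in PF. The 4 remaining H2B genes that rose were Hist1h2bf (0.94), Hist2h2be (0.63), Hist1h2bd (0.60) and the abundant Hist3h2ba (0.55), by log2 fold change. Hist1h2bd was no longer called without DNP replicate 2 or 3 or PF replicate 3, with an adjusted p between 0.0556 and 0.0802, nor with no filter (0.0695) or all 9 samples in the fit (0.0768). Hist1h2bcl1 (0.02) was not called.

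H2A pairs with H2B in the nucleosome. The 14 clustered H2A genes summed to 90.8 ± 8.11 FPKM in DNP and 153 ± 5.88 in PF (SD, n = 3). Of 12 tested, 8 were higher and 2 lower (18.1% and 30.7% of all genes tested). Hist1h2ai (gene ID 502129) measured 8.48, 7.81 and 7.06 FPKM in Ctrl, 8.43, 6.89 and 8.74 in DNP, and 24.4, 25.0 and 23.4 in PF. No PF sample came near the Ctrl or DNP samples, and the log2 fold change in PF vs DNP was 1.49 (SE 0.0796, adjusted p = 1.782e-06). Hist1h2ail1 measured 12.2, 12.8 and 10.6 FPKM in DNP and 25.95, 24.4 and 25.8 in PF, a log2 fold change of 1.04 (SE 0.0669, adjusted p = 4.698e-06). Hist2h2aa3, of the second cluster, measured 21.2, 18.25 and 21.7 FPKM in DNP and 46.7, 39.1 and 38.15 in PF. For both genes every PF sample exceeded every DNP sample, and for Hist2h2aa3 the log2 fold change was 0.98 (SE 0.0864, adjusted p = 2.96e-05).

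Of the other H2A genes, some were higher in PF. Hist1h2aa, a gene known from testis, measured 0.25, 1.05 and 0.66 FPKM in DNP and 1.96, 5.10 and 2.46 in PF, a log2 fold change of 1.29 (SE 0.267, adjusted p = 0.003742). PF replicate 2 stood above the other PF samples, and the groups did not overlap. Hist1h2ah rose by 1.02 (SE 0.163, adjusted p = 0.0009446), from 2.48 ± 0.757 to 5.96 ± 0.965 FPKM (SD, n = 3). Hist1h2ac (0.55), Hist1h2af (0.49) and Hist1h2ak (0.48) were higher by smaller log2 fold changes. The call of Hist1h2ak was lost without DNP replicate 2 or 3 or PF replicate 2, with an adjusted p between 0.0594 and 0.0972, and with no filter (0.0860). The H2A genes Hist1h2an (0.32) and Hist2h2aa2 (0.22) were not called.

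Against this direction, 2 clustered H2A genes were lower in PF. Hist3h2a (gene ID 64646), the clustered gene that rose in DNP vs Ctrl, measured 2.76, 2.88 and 3.45 FPKM in PF. These lay below every DNP sample and below every Ctrl sample, and the log2 fold change in PF vs DNP was -1.06 (SE 0.0985, adjusted p = 4.267e-05). Hist1h2ao measured 10.5, 6.02 and 7.73 FPKM in DNP and 4.39, 5.65 and 4.77 in PF, a log2 fold change of -0.59 (SE 0.162, adjusted p = 0.01506). DNP replicate 2 lay close to PF replicate 2, and the call was lost without PF replicate 1 (adjusted p = 0.0534), with PF replicate 1 only (0.0572) and with no filter (0.0585).

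**Figure D3:**
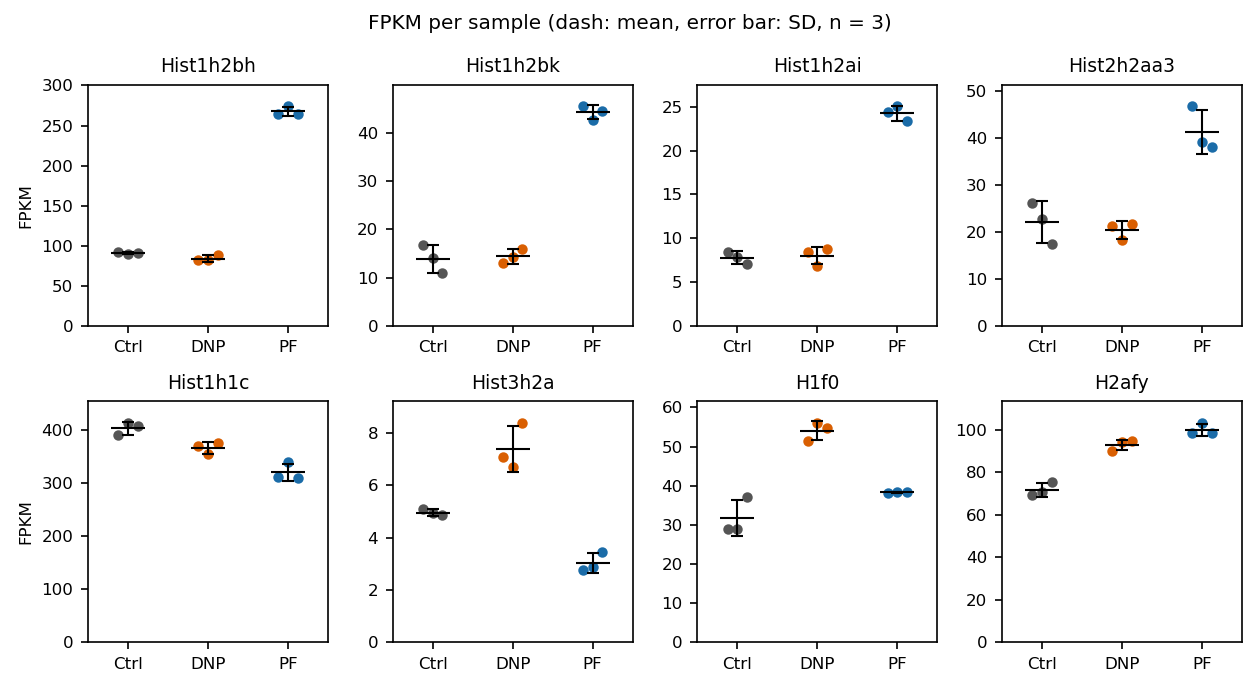
FPKM in each sample (y axis) of Hist1h2bh, Hist1h2bk, Hist1h2ai, Hist2h2aa3, Hist1h1c, Hist3h2a, H1f0 and H2afy in Ctrl, DNP and PF (x axis). Points are samples, dashes means and error bars SD; Hist1h2bh, Hist1h2bk, Hist1h2ai and Hist2h2aa3 are high in PF alone, and Hist1h1c and Hist3h2a are lowest in PF.

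The linker histone genes were split. Hist1h1c (gene ID 684681) measured 389.61, 412.83 and 406.73 FPKM in Ctrl, 370.05, 353.53 and 375.57 in DNP, and 310.62, 339.09 and 309.86 in PF. The 3 groups formed descending steps without overlap, and the log2 fold change in PF vs DNP was -0.20 (SE 0.043, adjusted p = 0.005073), lower in 3 of 3 PF samples. Of the 4 low H1 genes, 3 were called higher, where 18.1% of all genes tested were higher and 30.7% lower. Hist1h1d rose by 0.71 (SE 0.111, adjusted p = 0.0008712), from 2.98 to 5.49 FPKM, and Hist1h1a by 0.61 (SE 0.154, adjusted p = 0.009976), from 2.40 to 4.18 FPKM. Hist1h1t, a linker histone known from testis, was at 0.443 ± 0.110 FPKM in DNP and 1.52 ± 0.274 in PF (SD, n = 3), and passed the filter through PF alone. Hist1h1b was not called (log2 fold change 0.08), except without PF replicate 3 (adjusted p = 0.0448). With Hist1h1c the bulk of the sum, the summed level of the 5 H1 genes was lower in PF, at 334 ± 18.5 FPKM against 375 ± 10.8 in DNP (SD, n = 3).

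H3 and H4 genes gave small values or small changes. Among all genes tested 18.1% were higher and 30.7% lower in PF than in DNP. Both clustered H3 genes with values were higher in PF, Hist2h3c2 by 0.88 (SE 0.230, adjusted p = 0.01182) and Hist1h3a by 0.39 (SE 0.0939, adjusted p = 0.008375). Both calls were lost with PF replicate 1 only (adjusted p = 0.0514 and 0.0686), and that of Hist2h3c2 also with no filter (0.0509). Their sum was 8.75 ± 1.85 FPKM in PF (SD, n = 3), far below the sums of the H2A and H2B genes. That sum covers only 2 genes, against 14 H2A and 10 H2B genes, so it does not give the level of H3 mRNA as a whole. Hist1h4b, the abundant H4 gene, measured 54.2, 53.9 and 55.7 FPKM in Ctrl, 56.8, 57.0 and 56.65 in DNP, and 63.3, 67.6 and 64.9 in PF. PF lay above both other groups by a narrow margin, with a log2 fold change in PF vs DNP of 0.20 (SE 0.0355, adjusted p = 0.001824). Hist2h4 (0.23) was called only without PF replicate 3 (adjusted p = 0.0380) and with PF replicate 1 alone.

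PF replicate 1 has 4 h of antigen in both label fields. With it as the only PF sample, limma called 18 clustered genes, 16 higher and 2 lower, and 17 of them were among the 24 called with all PF samples. Of the 10209 genes tested then, 1178 were higher and 2455 lower. Of the other 7 clustered genes, Hist1h2ak, Hist1h2ao, Hist1h3a and Hist2h3c2 were not called, and Hist1h1t, Hist1h2aa and Hist1h2bd were not tested. H2afy and H2afz also lost their calls (adjusted p = 0.206 and 0.196). The lone sample is then assumed to vary like the DNP samples.

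Of the 10 other histone genes, 8 were tested, and 4 were higher and 2 lower in PF than in DNP, where 18.1% and 30.7% of all genes tested were. The numbers called depended on the scaling, with 6 higher and 1 lower by median ratios and 2 higher and 2 lower with the mean of the deposited sums. Calls over all genes moved too. By median ratios 2527 of 10317 genes tested were higher and 2741 lower. With the mean of the deposited sums 869 of 10320 were higher and 4302 lower. H1f0 measured 38.2, 38.35 and 38.4 FPKM in PF, between the Ctrl and the DNP samples. The log2 fold change in PF vs DNP was -0.49 (SE 0.040, adjusted p = 1.981e-05). H2afj, which fell in DNP vs Ctrl, measured 104, 104 and 99.4 FPKM in DNP and 139, 154 and 129 in PF, a log2 fold change of 0.45 (SE 0.0589, adjusted p = 0.0003029). All PF samples of H2afj exceeded all DNP samples.

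The most abundant variants differed little. H2afz rose by 0.16 (SE 0.0425, adjusted p = 0.01235), with 416, 454 and 439 FPKM in PF, and with the mean of the deposited sums its log2 change was 0.06 and was not called. H3f3b, at 489, 538 and 521 FPKM in PF, was not called (log2 fold change 0.09, adjusted p = 0.1058), but was called without PF replicate 1 (adjusted p = 0.0329) and by median ratios. With the mean of the deposited sums its log2 change was -0.01. H2afy rose by 0.11 (SE 0.0356, adjusted p = 0.03638), with 98.4, 103 and 98.3 FPKM in PF. That call was lost with any 1 DNP replicate left out and without PF replicate 1 or 2 (adjusted p from 0.0516 to 0.133). It was also lost with a replicate block (0.0501), no filter (0.0517), all 9 samples in the fit (0.0527) and no trend (0.0898), and with the mean of the deposited sums the log2 change was 0.0071. H2afx fell by 0.20 (SE 0.0592, adjusted p = 0.02092), a call lost by median ratios, without DNP replicate 2 or 3 and without PF replicate 1 or 3 (adjusted p from 0.0531 to 0.0710). H2afv was not called (0.26, adjusted p = 0.05214) but was without DNP replicate 3 (0.0374), without PF replicate 1 (0.00777), with a replicate block (0.0134), with all 9 samples in the fit (0.0448) and by median ratios. H3f3c, a pseudogene in the RefSeq table, was higher by 0.83 (SE 0.215, adjusted p = 0.01156), with 3.37, 6.53 and 3.78 FPKM in DNP and 11.5, 7.70 and 7.18 in PF. With all 9 samples in the fit its adjusted p was 0.0723.

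The third comparison sets PF against Ctrl, and so joins antigen and pretreatment. The comparisons share samples, PF with PF vs DNP and Ctrl with DNP vs Ctrl. Of the 34 clustered genes, 29 were tested, and 16 were higher and 3 lower in PF, where 23.1% of the 10361 genes tested were higher and 34.6% were lower. Hist1h1t and Hist1h2aa passed the filter through PF alone and so had to differ. The median log2 difference over all 34 was 0.34, against -0.0095 for all genes with values. Under both other scalings the same 19 clustered genes were called, 16 higher and 3 lower. Of the calls over all genes 39.98% were higher in PF as deposited, 47.98% by median ratios and 26.74% with the mean of the deposited sums.

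The largest changes were again in H2B and H2A genes. The log2 fold change in PF vs Ctrl was 1.62 for Hist1h2bk (SE 0.1225, adjusted p = 1.425e-05), 1.55 for Hist1h2bh (SE 0.0342, adjusted p = 6.906e-08) and 1.53 for Hist1h2ai (SE 0.0681, adjusted p = 1.349e-06). Next came Hist1h2aa (1.49), Hist1h2bf (1.25), Hist1h1t (1.01), Hist1h2ah (1.00) and Hist2h2aa3 (0.89). The 3 lower genes were those of PF vs DNP. Hist1h2ao fell by 0.81 (SE 0.122, adjusted p = 0.0005875), Hist3h2a by 0.57 (SE 0.0834, adjusted p = 0.0005188) and Hist1h1c by 0.33 (SE 0.046, adjusted p = 0.0003613). Neither clustered H3 gene was called by limma, and none had an unadjusted p under 0.05. Hist2h3c2 was called higher with a replicate block (adjusted p = 0.00319), without Ctrl replicate 2 (0.0352) and without PF replicate 3 (0.0491). Hist1h1a was called higher with a replicate block (0.02005) and without PF replicate 3 (0.0340). Hist1h2af was called higher without Ctrl replicate 2 (0.0348) and without PF replicate 3 (0.0401). Hist2h4 was called higher (0.69, adjusted p = 0.03011) although its groups overlap, and was not without Ctrl replicate 2 or 3 or PF replicate 1 or 2 (adjusted p from 0.0680 to 0.09905), nor with no filter (0.0837).

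Of the 10 other histone genes, 8 were tested, and 4 were higher in PF than in Ctrl (23.1% of all genes tested) and 0 lower by limma (34.6% of all), also 0 at an unadjusted p under 0.05. H2afy rose by 0.47 (SE 0.0442, adjusted p = 4.284e-05), and all PF samples exceeded all Ctrl samples. H1f0 (0.27, adjusted p = 0.02447), H2afj (0.20, adjusted p = 0.0301) and H2afz (0.19, adjusted p = 0.005585) were not called with the mean of the deposited sums or with PF replicate 1 only. H1f0 was also lost without Ctrl replicate 1 or 2 and with any 1 PF replicate left out (adjusted p from 0.05465 to 0.0815), and H2afj without Ctrl replicate 1 or 3 and PF replicate 1 or 2 (from 0.06295 to 0.0863). With no filter both were lost (0.0652 and 0.0731), and H2afj also without limma's trend (0.0582). H2afv (0.0044), H2afx (-0.03) and H3f3b (0.07) were not called, each with a sign that changed under another scaling, and H3f3b was called higher by median ratios (0.12, adjusted p = 0.0417). H3f3c (0.82, adjusted p = 0.07344) was called with a replicate block (0.0266) and without Ctrl replicate 1 (0.0361) or 3 (0.0435).

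Genes that make, process and deposit histones were followed in fixed lists. Of 15 genes for transcription and 3′ processing of clustered histone mRNAs, 14 were tested. In DNP vs Ctrl 1 was higher and 3 lower, where 14.7% and 14.4% of all genes tested were. In PF vs DNP 5 were higher and 6 lower (18.1% and 30.7% of all), and in PF vs Ctrl 5 and 4 (23.1% and 34.6% of all). Their median log2 fold change in PF vs DNP was -0.0079, against -0.0377 for all genes tested. Slbp, whose protein binds the stem-loop of clustered histone mRNAs, measured 25.4, 22.5 and 24.0 FPKM in DNP and 33.9, 30.6 and 31.8 in PF. All PF samples were above the DNP samples, with a log2 fold change of 0.41 (SE 0.0558, adjusted p = 0.0004026). The Ctrl samples, at 28.4, 26.6 and 27.5 FPKM, lay between them. By limma Slbp was lower in DNP vs Ctrl (-0.19, adjusted p = 0.02618) and higher in PF vs Ctrl (0.22, adjusted p = 0.006358). The genes of 2 proteins at the histone locus went down. Npat measured 10.5, 10.3 and 10.4 FPKM in DNP and 7.34, 6.96 and 8.21 in PF, and fell by 0.43 (SE 0.0662, adjusted p = 0.0008013). Casp8ap2 fell by 0.65 (SE 0.0607, adjusted p = 4.357e-05), from 10.95 to 6.64 FPKM. Lsm10 (-0.27) and Lsm11 (-0.21), of the U7 particle, were lower and Ncbp2 (0.36) was higher.

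A list of 27 genes, all tested, held histone chaperone and deposition genes and also Cenpa, the gene of a histone. Cenpa is counted among the genes higher in DNP vs Ctrl and in PF vs Ctrl. Of the 27 genes, 7 were higher and 3 lower in DNP vs Ctrl (14.7% and 14.4% of all genes tested). In PF vs DNP 4 were higher and 6 lower (18.1% and 30.7% of all), and in PF vs Ctrl 10 and 6 (23.1% and 34.6% of all). Their median log2 fold change in PF vs DNP was -0.0492. Hjurp, the chaperone of the centromeric histone CENP-A, measured 15.9, 15.8 and 16.3 FPKM in Ctrl, 12.8, 12.4 and 13.2 in DNP, and 3.36, 3.88 and 3.82 in PF. Each group lay below the one before without overlap, and the log2 fold change in PF vs DNP was -1.56 (SE 0.0669, adjusted p = 7.15e-07). Cenpa itself, at 20.2 ± 1.36 FPKM in DNP and 22.3 ± 2.04 in PF (SD, n = 3), was not called in PF vs DNP (0.13). It was called higher in DNP vs Ctrl (log2 fold change 0.21, adjusted p = 0.02657) and in PF vs Ctrl (0.34, adjusted p = 0.002496), from 17.3 ± 0.599 FPKM in Ctrl (SD). Asf1b (-0.32) and Daxx (-0.32), chaperones of H3 and H4, were lower in PF vs DNP. The 4 genes of the list called higher there were Ipo4 (0.23), Vps72 (0.19), Rbbp7 (0.15) and Ssrp1 (0.14).

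Since clustered histone genes follow DNA replication, 26 S phase genes were counted beside them. In DNP vs Ctrl 6 were higher and 2 lower (14.7% and 14.4% of all genes tested). In PF vs DNP 4 were higher and 4 lower (18.1% and 30.7% of all), and in PF vs Ctrl 8 and 3 (23.1% and 34.6% of all). Their median log2 fold change in PF vs DNP was 0.0165, and they summed to 1225, 1255 and 1229 FPKM in Ctrl, 1295, 1310 and 1303 in DNP, and 1301, 1321 and 1314 in PF. Every Ctrl sum lay below every DNP and PF sum, while DNP and PF overlapped. That step from Ctrl came largely from Prim1 and Tk1, and is not a rise across the list. Prim1 had means of 77.8 FPKM in Ctrl, 109.7 in DNP and 104.2 in PF, and Tk1 of 68.9, 90.6 and 94.3. Cdk2 and Fen1 were the genes called lower in DNP vs Ctrl. Pcna, the replication clamp, was at 148 ± 0.592 FPKM in DNP and 149 ± 1.64 in PF (SD, n = 3), and was not called. By log2 fold change in PF vs DNP, Ccne1 (0.28), Mcm2 (0.15), Mcm6 (0.13) and Mcm3 (0.11) were higher. Uhrf1 (-0.27), Fen1 (-0.27), Cdc45 (-0.23) and Cdk2 (-0.12) were lower. None of 10 RNAs without a poly(A) tail had a value, so they give no measure of how such RNAs were captured.

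The position of the genes gave a further view. By gene ID, 43 of the 44 histone genes were found in the RefSeq gene table of the rat build GRCr8, which now uses other symbols for 27 of them. Hist1h2bh is Hist1h2bq there, and H3f3c is a pseudogene. The Hist1 genes lie on chromosome 17 in 2 runs more than 1 Mb apart. In one run of 12 genes 9 were higher and 1 lower in PF vs DNP, and in the other run of 11 genes 8 were higher and 1 lower. On chromosome 2, 3 of 7 were higher, and on chromosome 10, 1 of 3 was higher and 1 lower, where 18.1% and 30.7% of all genes tested were. These runs hold 1, 0, 2 and 1 genes not tested. Hist3h2a and Hist3h2bb start 217 bases apart in opposite directions, as do Hist2h2ac and Hist2h2be 225 bases apart, and in each pair 1 gene was too low to test.

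Promoters of 300 bases, 250 before and 50 after the gene start, were given by RefSeq for 31 of the 34 clustered and 9 of the 10 other genes. They were searched on both strands for CCAAT, for TATAAA and for the octamer ATTTGCAT, which is known from H2B promoters. CCAAT was in 29 of the 31 clustered promoters (93.55%), in 5 of the 9 others (55.56%) and in 37.49% of all 33469 promoters. TATAAA was in 17 of 31 (54.84%), 3 of 9 (33.33%) and 14.22% of all. ATTTGCAT was in 11 of 31 (35.48%), 1 of 9 (11.11%) and 1.78% of all, among them 5 of 10 H2B, 6 of 14 H2A and 0 of 5 H1 promoters. The promoters of Hist3h2a and Hist3h2bb overlap, as do those of Hist2h2ac and Hist2h2be. In each pair the ATTTGCAT match is the same site, counted for both the H2A and the H2B gene. Of the 20 clustered promoters of genes higher in PF, 19 held CCAAT, 12 TATAAA and 7 ATTTGCAT, and of the 3 of lower genes 2, 0 and 1. In the same order the numbers were 4, 3 and 1 of the 4 promoters of genes not called, and 4, 2 and 2 of the 4 of genes not tested. A match describes the letters only.

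The 250 bases before the gene start are shown for the 3 genes with the largest log2 fold change in PF vs DNP and for Hist1h1c and Hist3h2a, which fell. They are from RefSeq, build GRCr8, read 5′ to 3′ on the gene's strand, and capitals mark matches to the 3 motifs on either strand. The regions are chr17:41869342-41869591 (minus strand) for Hist1h2bh, chr17:47181941-47182190 (minus) for Hist1h2bk, chr17:47448652-47448901 (plus) for Hist1h2ai, chr17:41820454-41820703 (minus) for Hist1h1c and chr10:44233033-44233282 (plus) for Hist3h2a.
Hist1h2bh: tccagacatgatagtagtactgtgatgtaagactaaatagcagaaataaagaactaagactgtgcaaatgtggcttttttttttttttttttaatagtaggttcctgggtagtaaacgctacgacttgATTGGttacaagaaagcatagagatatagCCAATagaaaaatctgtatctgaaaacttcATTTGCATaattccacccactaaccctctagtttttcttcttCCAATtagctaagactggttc
Hist1h2bk: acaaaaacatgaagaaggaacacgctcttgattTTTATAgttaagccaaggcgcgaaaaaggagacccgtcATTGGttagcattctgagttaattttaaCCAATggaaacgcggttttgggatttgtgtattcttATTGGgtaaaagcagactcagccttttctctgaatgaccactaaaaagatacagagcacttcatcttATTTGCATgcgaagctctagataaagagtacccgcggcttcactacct
Hist1h2ai: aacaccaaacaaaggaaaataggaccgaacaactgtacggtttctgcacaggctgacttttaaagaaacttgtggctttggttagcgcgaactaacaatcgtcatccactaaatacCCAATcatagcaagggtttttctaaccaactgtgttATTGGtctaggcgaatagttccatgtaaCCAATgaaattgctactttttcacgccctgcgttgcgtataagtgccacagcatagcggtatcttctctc
Hist1h1c: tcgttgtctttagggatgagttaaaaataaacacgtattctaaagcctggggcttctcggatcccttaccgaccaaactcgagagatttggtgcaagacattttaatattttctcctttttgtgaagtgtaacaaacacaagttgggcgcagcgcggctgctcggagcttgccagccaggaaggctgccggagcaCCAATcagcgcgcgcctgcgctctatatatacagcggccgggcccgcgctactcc
Hist3h2a: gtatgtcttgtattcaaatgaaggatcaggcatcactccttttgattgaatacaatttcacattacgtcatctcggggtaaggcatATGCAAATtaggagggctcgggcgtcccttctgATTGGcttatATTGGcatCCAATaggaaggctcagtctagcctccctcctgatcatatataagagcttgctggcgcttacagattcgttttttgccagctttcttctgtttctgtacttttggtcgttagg
ATTTGCAT starts 63 bases before the gene start in Hist1h2bh and 48 bases before it in Hist1h2bk, on the gene's strand. In Hist3h2a it lies 164 bases before the start on the opposite strand, and Hist1h1c holds only CCAAT, at 55 bases.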

How the data were processed

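The authors filtered reads, mapped them with HISAT2 2.0.4 and Bowtie2 2.2.5 to rn6 and quantified genes with RSEM 1.2.12. The deposited values were read as FPKM; the headings name no unit, and the values were checked against counts and TPM. Labels name Illumina protocols and the study's methods a BGISEQ-500. Empty cells were left out. Values were compared on log2(FPKM + 1) with limma 3.58.1 in R 4.3.3 (trend, two-sided), for genes that reached 1 FPKM in 3 or more of 6 samples, called at a Benjamini-Hochberg adjusted p of at most 0.05 over all genes tested, and tested on simulated data. Sums have no test. Members and lists (histone mRNA processing, chaperones, S phase, RNAs without poly(A), cell markers) were chosen with earlier results of these data known. Named were, per comparison, up to 8 called members per direction by log2 fold change, every other histone gene tested, the 6 most abundant clustered genes, and up to 6 called genes per list with Slbp, Npat, Pcna and Cenpa; further genes were named after their values were seen. Alternatives were the 0.01 threshold, pseudocount 0.1, no filter, all 9 samples in the fit, a replicate block, median ratios, the mean of the deposited sums, no trend, PF replicate 1 only, and leaving out each sample. Protein sequences were not used here.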

Additional observations from a re-analysis of the deposited data

How the results depend on the processing

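No called gene changed direction under any alternative run in which it was tested, while several genes not called did. The median over the other histone genes in DNP vs Ctrl, -0.0048 as reported, turned positive with pseudocount 0.1 (0.0162), with the mean of the deposited sums (0.0040) and without Ctrl replicate 1, DNP replicate 2 or DNP replicate 3 (0.0104 to 0.0296). No median over the members moved by more than the spread between samples. Called clustered genes ranged from 18 to 24 in PF vs DNP (24 as reported) and from 16 to 21 in PF vs Ctrl (19 as reported). With a replicate block the counts were 4 clustered and 5 other genes in DNP vs Ctrl, 24 and 6 in PF vs DNP, and 21 and 5 in PF vs Ctrl. Over all genes tested the block gave 2697 calls of 10392, 4675 of 10329 and 6009 of 10361 in these comparisons. Deviations of samples with the same replicate number correlated weakly, between -0.082 and 0.189. In PF vs Ctrl these correlations were all positive, from 0.083 to 0.189, so weak pairing by replicate number there is not excluded. At an adjusted p of at most 0.01 the counts were 1 clustered and 3 other genes in DNP vs Ctrl (3 and 5 as reported), 2 other genes in PF vs DNP (6 as reported) and 2 in PF vs Ctrl (4 as reported). Calls over all genes fell too, to 1469, 3445 and 4446 from 3031, 5042 and 5975 as reported. With no filter 1 clustered gene was called in DNP vs Ctrl, and 2359 of all 17430 genes tested then. In PF vs Ctrl 1 other gene was called with the mean of the deposited sums and 1 with PF replicate 1 only; the cause was not tested. Leaving out 1 sample gave 2 to 4 clustered and 3 to 5 other genes in DNP vs Ctrl, with 3 other genes without DNP replicate 2. In PF vs Ctrl it gave 2 to 4 other genes, with 2 without PF replicate 1 and 2 without PF replicate 2. Over all genes such fits called between 2099 and 2736 in DNP vs Ctrl and between 5147 and 5541 in PF vs Ctrl. Of the histone genes called, 4 of 8 in DNP vs Ctrl, 21 of 30 in PF vs DNP and 19 of 23 in PF vs Ctrl were called under every alternative in which they were tested. With a PF sample left out or PF replicate 1 only, Hist1h1t was not tested in PF vs DNP or PF vs Ctrl, nor Hist1h2aa in PF vs Ctrl (in PF vs DNP with PF replicate 1 only), so their calls rest on the other alternatives. FPKM hold no counts, so the precision that depth gives low genes is unknown.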
